A study of Mus musculus with 9 samples.

Results

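T cell receptor gene segments were followed here in innate intestinal lymphocytes of NOD-SCID mice, cells of an animal that cannot assemble a normal antigen receptor. The members were all array rows whose every annotated gene symbol is a T cell receptor alpha (Tra), beta (Trb), gamma (Trg) or delta (Trd) segment. This gave 52 of the 23410 rows with a gene name: 45 alpha, 2 beta, 4 gamma and 1 delta row. Tradd, an adaptor of tumour necrosis factor receptor signalling, shares the opening letters but is no receptor segment, and it was left out. All 27 segments named on these rows are variable (V) segments. No diversity, joining or constant segment was named on these rows, so the constant genes Trac, Trbc1, Trbc2, Trdc and those of the gamma locus were not analysed here. Rows that name a segment beside another kind of gene were not members.

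T cell receptor chains are built by V(D)J recombination: the Rag1 and Rag2 proteins cut beside V, D and J segments, and the broken ends are joined by a repair pathway that needs the kinase Prkdc. The scid mutation lies in Prkdc, so cutting can start but coding ends are rarely joined, and mature T and B cells are largely missing. Variable segments can nevertheless be transcribed before any rearrangement, as germline transcripts, and transcription of a locus normally precedes its recombination. The gut epithelium of such mice still holds CD3-negative lymphocytes, and Ly49E, the product of Klra5, is an inhibitory-type lectin receptor found on part of them.

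All groups were cells from the epithelium of the small intestine of untreated NOD-SCID mice, 8 to 10 weeks of age, so each carried the same strain background and the same Prkdc defect. Per the series' design text, CD3- CD45+ cells were sorted to a purity over 98% into 3 populations. These are Ly49E+CD8aa+ cells, called double-positive here, Ly49E+CD8aa- cells, called Ly49E-only, and Ly49E-CD8aa+ cells, called CD8aa-only. Each population was measured on 3 Affymetrix Mouse Gene 1.0 ST arrays, numbered as biological replicates, 9 arrays in all. The labels read here do not say how many mice went into an array, so the p-values measure the spread between these arrays. Values are log2 expression levels, on which a difference of 1 is a doubling. In bulk RNA such as this, fewer cells carrying a transcript and less of it per cell cannot be told apart.

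The sort could be followed in the RNA. Klra5 had means of 11.40 ± 0.10 in double-positive, 11.43 ± 0.065 in Ly49E-only and 6.59 ± 0.98 in CD8aa-only cells (SD, n = 3 each). Ptprc, which encodes CD45, was at 11.83, 11.82 and 11.85. The gate was on surface CD3, but the CD3 chain RNAs were not at the low end of the arrays: Cd3g lay between 12.70 and 12.97 and Cd3e between 10.35 and 11.79, against array medians of 5.93 to 6.03 over all named rows. Array values correlated at Pearson's r of 0.988 to 0.995 over all rows, and no pair of arrays held identical values.

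The variable segments did not move as a single group. The 2 gamma rows that name Trgv2, Trgv4 and Trgv6 had their highest means in Ly49E-only cells, by about 0.7 on the log2 scale, while Trgv1 lay at nearly the same level in all populations. Most alpha rows leaned the other way, with their lowest means in Ly49E-only cells, with median differences of 0.17 (double-positive minus Ly49E-only) and -0.23 (Ly49E-only minus CD8aa-only). The summary of the alpha rows as a group was added after their values were seen. A single alpha row, which names Trav7-4, ran against most other alpha rows and was higher in Ly49E-only cells, by 1.89 on the log2 scale against CD8aa-only cells and with a difference of -1.84 for double-positive minus Ly49E-only. Its levels in the other populations, and on replicate 1 of the Ly49E-only arrays, lay below the 25th percentile of the arrays. They may be background, so no fold is given. Between the double-positive and CD8aa-only cells, which share CD8aa, no segment row passed the test.

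The counts were these, with limma and Benjamini-Hochberg adjustment over all 23410 rows at 0.05. Between double-positive and CD8aa-only cells 0 of 52 segment rows were called, where 0.107% of all rows were (0.0256% higher and 0.0812% lower in double-positive cells). At an unadjusted p under 0.05 there were 5 segment rows, 9.62% of them against 4.13% of all rows. As some rows hold identical values, these were 4 distinct sets of values. Between double-positive and Ly49E-only cells 2 of 52 were called, 3.85% against 1.45% of all rows. Both were lower in double-positive cells, a direction in which 1.06% of all rows were called, while 0.389% were called higher. At an unadjusted p under 0.05 there were 15 segment rows with 12 distinct sets of values, 28.8% against 9.16% of all rows. Between Ly49E-only and CD8aa-only cells 4 of 52 were called, 7.69% against 1.85%. Of these, 2 were higher in Ly49E-only cells, where the background was 1.17%, and 2 were lower, where it was 0.679%. The 2 lower rows hold identical values and so count as 1 measurement. At an unadjusted p under 0.05 there were 19 segment rows with 14 distinct sets of values, 36.5% against 10.2% of all rows. The F test across the 3 populations called 2 of 52, 3.85% against 1.7% of all rows. The Ly49E-only arrays enter both comparisons that gave calls, so the comparisons are not independent of each other.

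The rows need some care in reading. Only 10 of the 52 carry a single symbol, and 42 carry several, of 1 family or of different families. In 11 cases a pair of rows holds the same values on every array, all in the alpha locus, so the 52 rows amount to 41 distinct profiles and the 45 alpha rows to 34. Trav3n-3 and Trav3-3 are named together on 29 rows, on 13 of them alone, and the means of these 29 rows run from 2.77 to 8.34. The same pair of names therefore stands for rows of very different level. All 27 symbols were matched by identifier to the RefSeq gene table and are still in use there. They cover 20 of 130 alpha, 2 of 35 beta, 4 of 7 gamma and 1 of 6 delta V segments of that table. A row that names several segments may carry signal from any of them, and levels of different rows do not rank the abundance of their transcripts. The values also do not separate germline from rearranged transcripts.

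The gamma locus encodes 1 chain of the gamma delta T cell receptor, the receptor carried by many intraepithelial T cells of a normal gut. Row 10407940, which names Trgv2, Trgv6 and Trgv4, stood at 9.45, 9.35 and 9.46 in double-positive cells, at 10.09, 10.16 and 10.08 in Ly49E-only cells and at 9.60, 9.02 and 9.51 in CD8aa-only cells. Every Ly49E-only array was above every other array. The level in double-positive cells differed from that in Ly49E-only cells by -0.69 (SE 0.13, limma adjusted p = 0.0470), a 1.61-fold difference. The level in Ly49E-only cells was 0.73 above that in CD8aa-only cells (SE 0.13, limma adjusted p = 0.0299), a 1.66-fold difference. Both calls lie close to the threshold. Each was kept in 8 of 17 alternative settings, and each was lost on leaving out any double-positive array, any Ly49E-only array or replicate 3 of the CD8aa-only arrays, with adjusted p of 0.0705 to 0.173 and of 0.0567 to 0.111. With every row of the table fitted both were lost too (adjusted p = 0.115 and 0.0749). The first was lost with the replicate block, and the second was lost with the 6 arrays of its comparison alone (0.141). The differences over those 17 settings ran from -0.71 to -0.65 and from 0.55 to 0.84.

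A second gamma row, 10403821, names the same Trgv6, Trgv4 and Trgv2. It stood at 9.59, 9.27 and 9.59 in double-positive, at 10.19, 10.25 and 10.12 in Ly49E-only and at 9.86, 9.11 and 9.57 in CD8aa-only cells. Its arrays too fell into a higher Ly49E-only set with no overlap, and its differences were of like size, -0.70 (SE 0.17, limma adjusted p = 0.125) for double-positive minus Ly49E-only and 0.67 (SE 0.17, adjusted p = 0.133) for Ly49E-only minus CD8aa-only. Neither passed the test. Over the 9 arrays the 2 rows tracked each other with a Pearson's r of 0.974 and differed by -0.080 to 0.27. They name the same segments and may share target transcripts, so they are not separate evidence. In both rows replicate 2 of the CD8aa-only arrays was the lowest of all arrays.

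The other 2 gamma rows did not separate the populations. Row 10403816, which names Trgv6 and Trgv4 without Trgv2, stood at 8.03, 8.26 and 8.76 in double-positive, at 8.66, 8.76 and 8.70 in Ly49E-only and at 7.76, 8.32 and 8.88 in CD8aa-only cells. Its Ly49E-only arrays lay close together and inside the range of the others, and its differences of -0.35 and 0.39 were not called (SE 0.27, limma adjusted p = 0.776 and 0.701). Row 10403825, the single-symbol row of Trgv1, had the highest level of any segment row and the smallest standard error of the gamma rows (0.063). It stood at 11.50, 11.52 and 11.62 in double-positive, at 11.62, 11.64 and 11.70 in Ly49E-only and at 11.52, 11.62 and 11.65 in CD8aa-only cells. The arrays of all populations overlapped. For double-positive minus Ly49E-only its difference was -0.11 with a 95% interval of -0.25 to 0.04, and for Ly49E-only minus CD8aa-only it was 0.06 with an interval of -0.09 to 0.20. Those intervals do not reach the differences of -0.69 and 0.73 of row 10407940. Whether the rows respond differently was not tested.

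**Figure D1:**
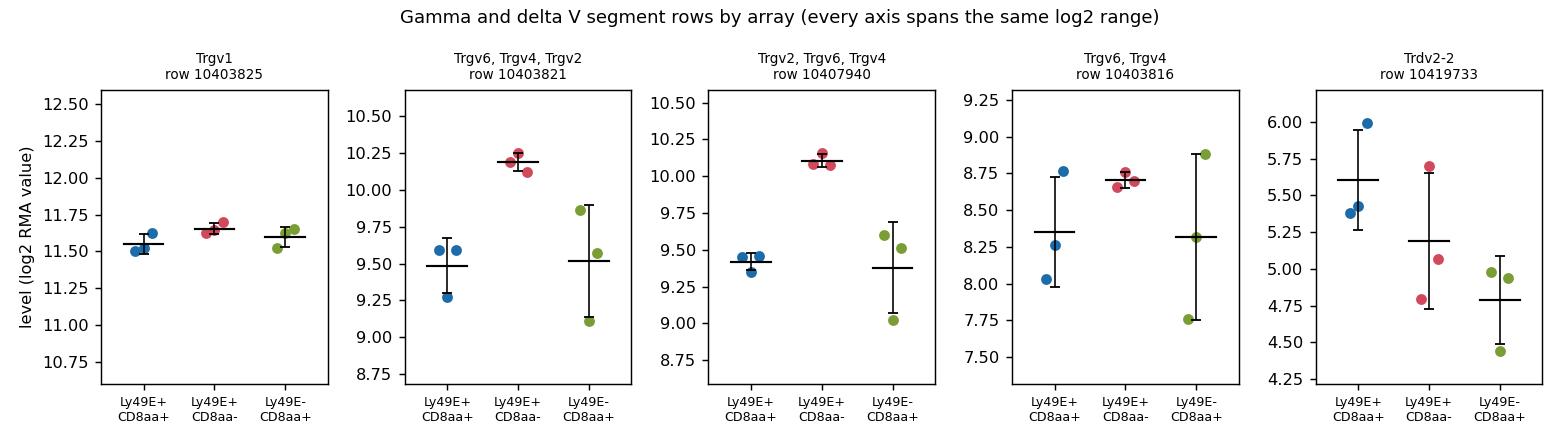
Log2 expression level (vertical axes, each spanning the same range) of the 4 gamma rows and the delta row on each of the 9 arrays; points are arrays grouped by population, and lines with error bars are means with SD. Rows 10407940 and 10403821 lie between 10.08 and 10.25 on the 3 Ly49E-only arrays and between 9.02 and 9.86 on the other 6, while Trgv1 stays between 11.50 and 11.70.

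The delta locus, whose segments lie inside the alpha locus, was represented by 1 row, 10419733 for Trdv2-2. It stood at 5.38, 5.43 and 5.99 in double-positive, at 4.80, 5.70 and 5.06 in Ly49E-only and at 4.98, 4.44 and 4.94 in CD8aa-only cells. All double-positive arrays were above all CD8aa-only arrays, and the Ly49E-only arrays overlapped both. The difference between double-positive and CD8aa-only was 0.82 (SE 0.26), with a limma adjusted p of 1. Such a higher, non-overlapping pattern was found in 2.9% of all rows in that comparison and in 2 of the 52 segment rows.

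Both beta rows overlapped between the populations. Row 10537558 for Trbv1, a V segment that lies apart from the main beta cluster, had means of 6.73 ± 0.27, 6.45 ± 0.30 and 6.65 ± 0.097 in double-positive, Ly49E-only and CD8aa-only cells (SD, n = 3 each). Row 10537624, which names Trbv13-2 and Trbv1, had means of 3.54 ± 0.15, 3.66 ± 0.26 and 3.45 ± 0.083, below the 25th percentile of each array (4.62 to 4.73). No beta difference exceeded 0.28 and none was called.

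The alpha locus gave the largest segment difference. Row 10415015, which names Trav7-4, Trav3n-3 and Trav3-3, stood at 3.19, 3.12 and 2.81 in double-positive cells and at 2.90, 3.23 and 2.85 in CD8aa-only cells. In Ly49E-only cells it stood at 4.49, 5.29 and 4.85. The first 6 values lie below the 25th percentile of the arrays, and the Ly49E-only values lie above all of them with a gap of more than 1. The row was dim in Ly49E-only cells too. Its 4.49 on replicate 1 lay below that array's 25th percentile of 4.63, and its 4.85 on replicate 3 lay little above 4.67. The difference was -1.84 for double-positive minus Ly49E-only (SE 0.20, limma adjusted p = 0.00197) and 1.89 for Ly49E-only minus CD8aa-only (SE 0.20, adjusted p = 0.00139). Both calls held in 15 of 15 alternative settings that kept the row, with adjusted p of 0.000885 to 0.0236 and of 0.000606 to 0.018. The 3 settings that dropped it were the filters on dim rows and the restriction to single symbols.

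Which of the named segments gave this signal cannot be read from the array. Another row with Trav7-4 among its symbols, 10414929, lay at means of 4.21, 4.16 and 4.25 in double-positive, Ly49E-only and CD8aa-only cells, with differences of at most 0.10 in size and none called. It also names Trav3n-3, Trav3-3 and Trav7d-4. The other 28 rows that name Trav3n-3 and Trav3-3 include none that was called higher in Ly49E-only cells. The higher level in Ly49E-only cells was therefore not common to the rows that share these symbols.

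Most other alpha rows had their lowest level in Ly49E-only cells. Of the 34 distinct alpha profiles, 28 had their lowest mean there, 3 in double-positive and 3 in CD8aa-only cells. Their highest mean was in CD8aa-only cells for 21, in double-positive cells for 11 and in Ly49E-only cells for 2. The median difference over the distinct profiles was -0.23 for Ly49E-only minus CD8aa-only, with 30 of 34 below 0, beside a median of -0.021 and 57.5% below 0 over all rows. For double-positive minus Ly49E-only it was 0.17, with 30 of 34 above 0, beside a median of 0.022 over all rows, of which 41.4% lay below 0. For double-positive minus CD8aa-only the median was -0.045, with 22 of 34 below 0, beside 0.00087 and 49.6% below 0 over all rows. Rows that share symbols may share target sequence, so these profiles cannot be taken as independent and the counts carry no test. The direction of the alpha rows as a group was looked at after their values were seen.

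Single arrays bear on the size of this pattern. Replicate 1 of the CD8aa-only arrays was the highest of the 9 arrays in 16 of the 34 alpha profiles, and the Ly49E-only arrays were the lowest in 8, 13 and 6. Without that CD8aa-only replicate the alpha median for Ly49E-only minus CD8aa-only shrank to -0.11, with 29 of 34 still below 0. Over the 7 distinct profiles with a single symbol it was -0.086, with 5 below 0. Over all 18 alternatives it stayed below 0, from -0.28 to -0.086, and the median for double-positive minus Ly49E-only stayed above 0, from 0.11 to 0.24. The median between the CD8aa+ populations changed sign in 2 of 18.

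**Figure D2:**
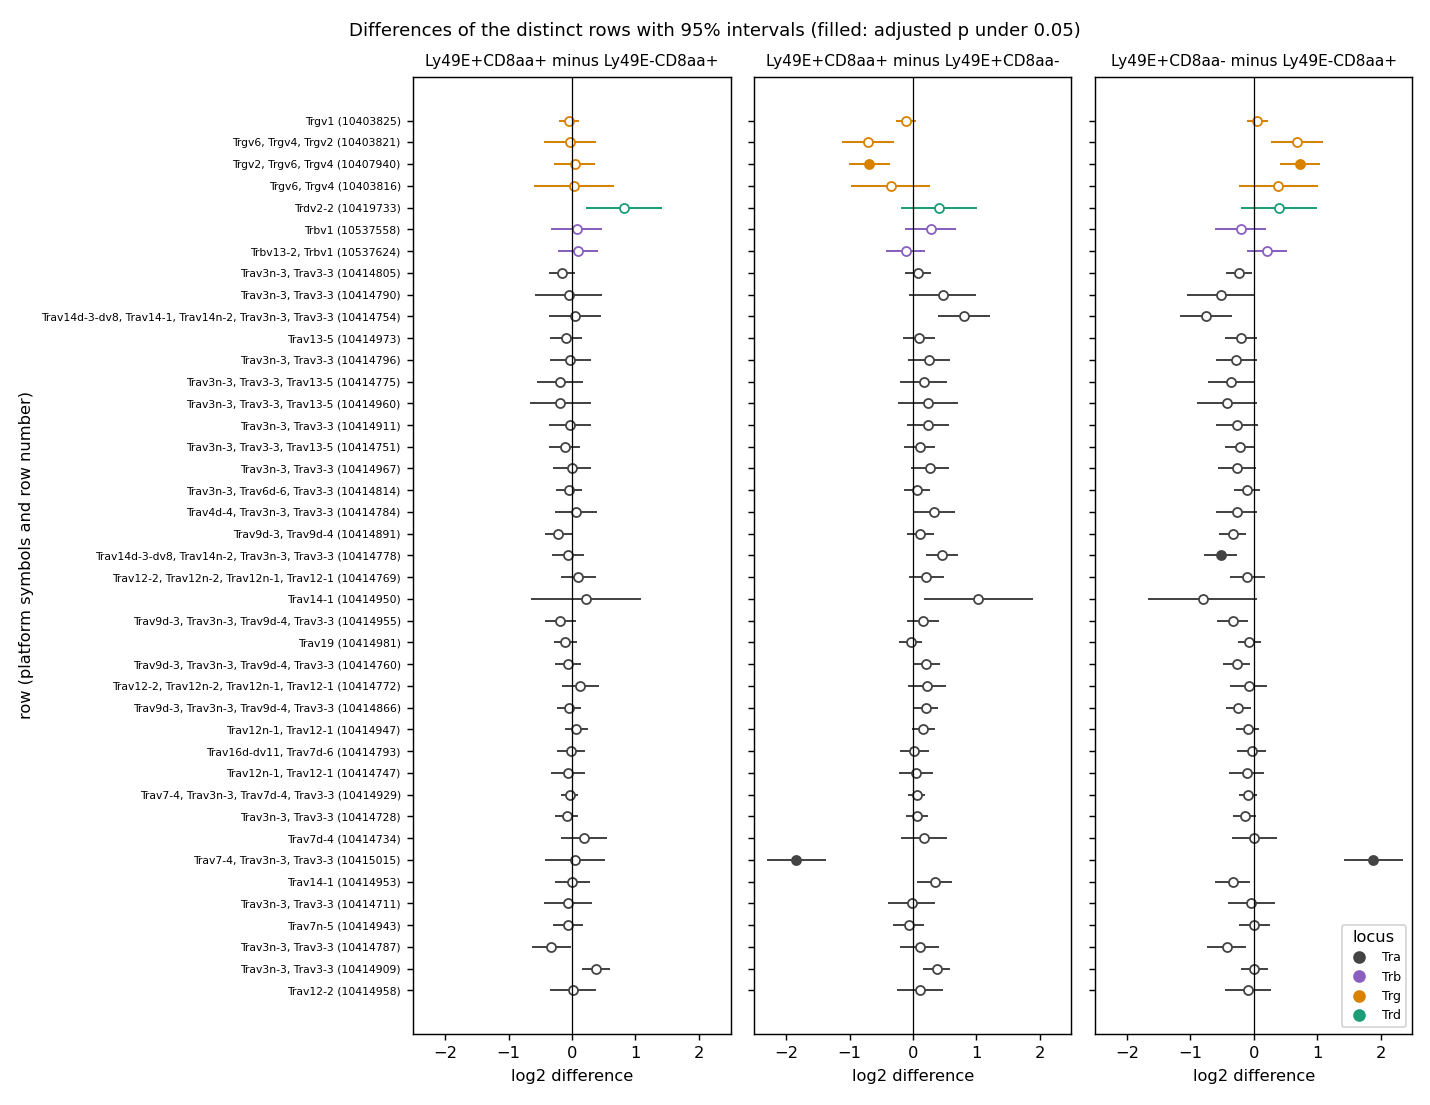
Difference in log2 expression level (horizontal axis) of the 41 distinct segment profiles in each of the 3 comparisons, as points with 95% intervals, coloured by locus and filled where the adjusted p is under 0.05. Alpha profiles lie mostly on the side of lower levels in Ly49E-only cells, while row 10415015 (1.89 above CD8aa-only) and the gamma rows lie on the other side.

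Counts of rows whose arrays did not overlap showed the same lean. In 20 of 52 rows, 14 distinct, all Ly49E-only arrays lay below all CD8aa-only arrays, 38.5% against 7.24% of all rows, and 3 of 52 lay the other way against 5.92%. In 17 of 52 rows, 12 distinct, all double-positive arrays lay above all Ly49E-only arrays, 32.7% against 7.19% of all rows, and 3 lay below against 5.8%. The rows counted as lower in Ly49E-only cells were all alpha rows. Between double-positive and CD8aa-only cells 2 rows were separated upward and 1 downward, where 2.9% and 3.28% of all rows were.

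Within the alpha locus the largest differences of this direction were in rows that name a Trav14 segment, but not every such row exceeded the others. For Ly49E-only minus CD8aa-only, Trav14-1 row 10414953 differed by -0.33. Rows 10414790 and 10414900, which name only Trav3n-3 and Trav3-3, differed by -0.52. Rows 10414778 and 10414885, with the same values, name Trav14d-3-dv8 and Trav14n-2 beside Trav3n-3 and Trav3-3. They stood at 6.78, 6.78 and 6.76 in double-positive, at 6.47, 6.33 and 6.15 in Ly49E-only and at 6.68, 6.81 and 7.03 in CD8aa-only cells. The Ly49E-only arrays lay below all others. The difference of -0.52 for Ly49E-only minus CD8aa-only was called (SE 0.11, limma adjusted p = 0.0458), and the difference of 0.46 for double-positive minus Ly49E-only was not (adjusted p = 0.0944). The call was kept in 4 of 17 alternatives, with adjusted p from 0.036 to 0.184, and was lost on leaving out any of the 3 double-positive arrays or replicates 2 or 3 of either other population. It was also lost with every row fitted (0.102), repeated quantile normalisation (0.0542), median centring (0.0842), an intensity trend (0.0539), the replicate block and the 6 arrays alone (0.184).

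Rows 10414754 and 10414860, which add Trav14-1 to those names, had a larger difference and a larger spread. They stood at 8.00, 8.13 and 8.44 in double-positive, at 7.71, 7.39 and 7.05 in Ly49E-only and at 8.04, 8.09 and 8.30 in CD8aa-only cells. The arrays did not overlap with those of Ly49E-only cells, but 0.80 (SE 0.17, limma adjusted p = 0.0708) and -0.75 (SE 0.17, adjusted p = 0.0786) were not called. The single-symbol Trav14-1 row 10414950 stood at 5.93, 6.96 and 7.11, at 5.62, 5.97 and 5.31 and at 6.32, 5.90 and 7.11 in the same order of populations. Its arrays overlapped, and its difference of 1.03 for double-positive minus Ly49E-only had an SE of 0.37 and an adjusted p of 0.397. The other Trav14-1 row, 10414953, had means of 3.70, 3.36 and 3.70. Over the 4 distinct Trav14 profiles the median difference was 0.63 for double-positive minus Ly49E-only and -0.64 for Ly49E-only minus CD8aa-only, the same sign in all 4. The family was singled out after its values were seen.

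The Trav9 and Trav13 rows moved by less. A row with several names counts in each of its families. The 4 distinct Trav9 profiles differed by -0.34 to -0.25 between Ly49E-only and CD8aa-only cells, with non-overlapping arrays in all 4, and none was called. The 4 Trav13 profiles differed by -0.42 to -0.20, with non-overlapping arrays in 2 of them. Over all rows, 7.24% had Ly49E-only arrays below all CD8aa-only arrays. The rows of these families are among the alpha rows counted above, and the families were summarised after their values were seen. In the same comparison the 5 Trav12 profiles lay within -0.11 to -0.084 and overlapped in all cases. For double-positive minus Ly49E-only the Trav12 profiles differed by 0.048 to 0.22. Double-positive arrays lay above all Ly49E-only arrays in 2 of those 5, a pattern found in 7.19% of all rows. In these families too no row passed the test.

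Among the brightest alpha rows, 10414790 and 10414900 (Trav3n-3 and Trav3-3) had means of 8.36, 7.89 and 8.41 in double-positive, Ly49E-only and CD8aa-only cells. Row 10414805, with the same names, had means of 8.31, 8.23 and 8.47. At the dim end, row 10414909 (the same names again) stood at 3.03, 3.06 and 2.96 in double-positive cells and between 2.46 and 2.74 on the other 6 arrays. Its differences of 0.38 from CD8aa-only and 0.37 from Ly49E-only were not called (SE 0.087, limma adjusted p = 0.582 and 0.101). Row 10414958 for Trav12-2 overlapped throughout, with means of 2.75, 2.64 and 2.72.

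**Figure D3:**
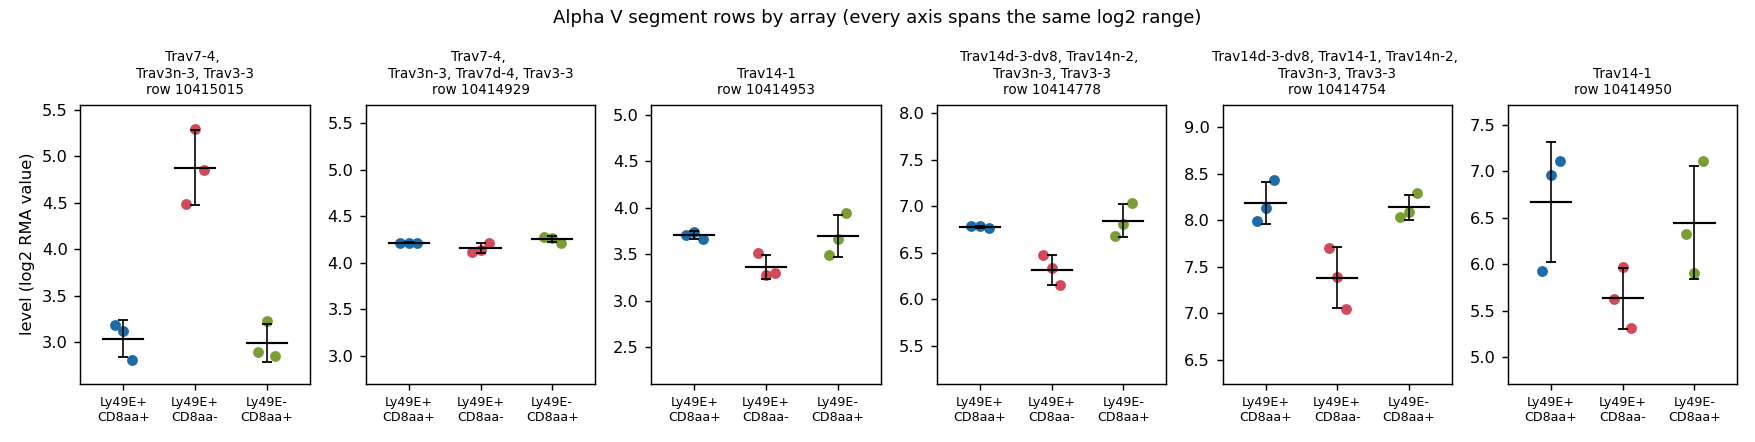
Log2 expression level (vertical axes, each spanning the same range) of the distinct alpha profiles that name Trav7-4 or a Trav14 segment on each of the 9 arrays; points are arrays grouped by population, and lines with error bars are means with SD. Row 10415015 is higher on the 3 Ly49E-only arrays (4.49 to 5.29) than on the other 6 (2.81 to 3.23), and rows 10414778 and 10414754 are lower there.

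**Figure D4:**
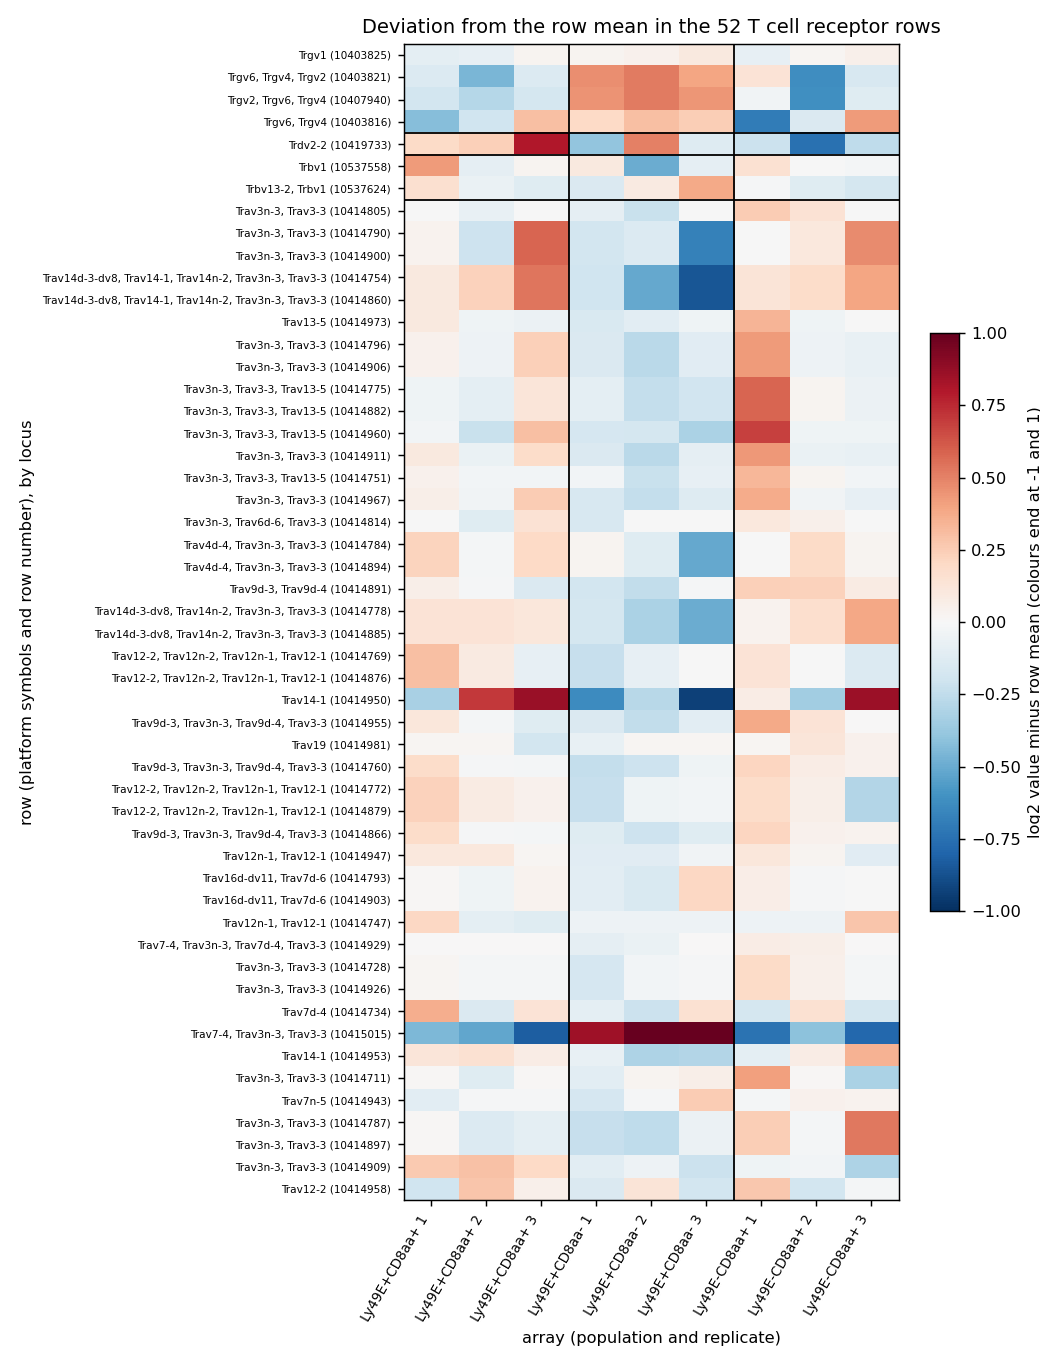
Deviation of each of the 52 segment rows from its own mean over the 9 arrays, as colour in log2 units ending at -1 and 1, with arrays in columns and rows ordered by locus and then by mean level. Most alpha rows are below their mean on the Ly49E-only arrays, and replicate 1 of CD8aa-only is the highest array in 16 of 34 distinct alpha profiles.

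The recombination machinery did not separate the populations. Of 14 measured genes of V(D)J cutting and end joining, 0 were called in any comparison, and the smallest limma adjusted p values were 0.702, 0.301 and 0.138 for double-positive minus CD8aa-only, double-positive minus Ly49E-only and Ly49E-only minus CD8aa-only. Rag1, the catalytic subunit of the recombinase, had means of 3.88 ± 0.045, 3.80 ± 0.049 and 3.90 ± 0.11 in double-positive, Ly49E-only and CD8aa-only cells. Rag2, its partner, had means of 3.38, 3.29 and 3.37. Both lay below the 25th percentile of the arrays. Dntt, which adds bases at the joints, stood at 3.96, 3.90 and 3.75, at 3.89, 3.88 and 3.95 and at 4.71, 4.16 and 4.32, so that all CD8aa-only arrays were above the rest, but its differences of -0.53 and -0.49 were not called (SE 0.13, adjusted p = 0.702 and 0.138). Prkdc RNA had means of 7.66, 7.38 and 7.61; its level says nothing of the scid point mutation.

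Among the 8 CD3 chains, pre-receptor and coreceptor genes, 2 were higher and 1 was lower in double-positive than in Ly49E-only cells, and 0 differed between the CD8aa+ populations. Cd3e, a signalling chain of the receptor complex, stood at 11.79, 11.71 and 11.74 in double-positive, at 11.23, 10.51 and 10.35 in Ly49E-only and at 11.72, 11.57 and 11.73 in CD8aa-only cells. It was 1.05 higher in double-positive than in Ly49E-only cells (SE 0.19, limma adjusted p = 0.0346) and lower in Ly49E-only than in CD8aa-only cells, with a difference of -0.98 (adjusted p = 0.0412). Cd3d had means of 9.84, 9.17 and 9.46, Cd3g of 12.93, 12.72 and 12.94 and Cd247, the zeta chain, of 7.35, 7.40 and 7.20, and none of these was called. Ptcra, the surrogate alpha chain of the pre-receptor, had means of 6.03, 5.99 and 6.24, with an adjusted p of 0.0614 for its difference of -0.25 between Ly49E-only and CD8aa-only cells.

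Of the coreceptor genes, Cd8b1 differed by more than any segment row. Cd8a encodes the marker of the sort itself, so its difference follows from the gate. It was 1.13 higher in double-positive than in Ly49E-only cells (SE 0.083, limma adjusted p = 0.000171). Its means were 12.55, 11.42 and 12.58 in double-positive, Ly49E-only and CD8aa-only cells. In the cells gated as CD8aa- its RNA was thus far above the array medians of 5.93 to 6.03. Cd8b1, the beta chain of the conventional CD8 coreceptor, stood at 8.54, 8.11 and 8.38 in Ly49E-only cells and between 5.15 and 5.40 on the 6 other arrays. Its difference was -3.06 for double-positive minus Ly49E-only (SE 0.11, limma adjusted p = 2.05e-06), and it was 3.04 higher in Ly49E-only than in CD8aa-only cells (adjusted p = 2.19e-06).

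Of 15 measured transcription factors linked to receptor loci, 1 was called in each comparison with Ly49E-only cells and 0 in the other. Gata3, a T lineage factor, was lower in double-positive than in Ly49E-only cells, with a difference of -0.51 (SE 0.098, limma adjusted p = 0.0436). Its difference of 0.47 for Ly49E-only minus CD8aa-only was of like size but just missed the threshold (adjusted p = 0.0531). Lef1, which binds the alpha enhancer, was 0.66 higher in Ly49E-only than in CD8aa-only cells (SE 0.12, adjusted p = 0.0341). Its differences of 0.56 for double-positive minus CD8aa-only and -0.10 for double-positive minus Ly49E-only were not called. Of 9 measured receptor signalling genes, Themis, needed in thymocyte selection, was 1.28 higher in double-positive than in Ly49E-only cells (SE 0.25, adjusted p = 0.049997). The costimulatory receptor Cd28 was lower there, with a difference of -2.54 (SE 0.16, adjusted p = 5.49e-05). Cd28 and the adaptor Lat were 2.36 and 0.60 higher in Ly49E-only than in CD8aa-only cells (adjusted p = 9.13e-05 and 0.0159), and 0 of the 9 were called between the CD8aa+ populations. Dclre1c, Tcf7 and Lck were on these lists but were not analysed here.

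**Figure D5:**
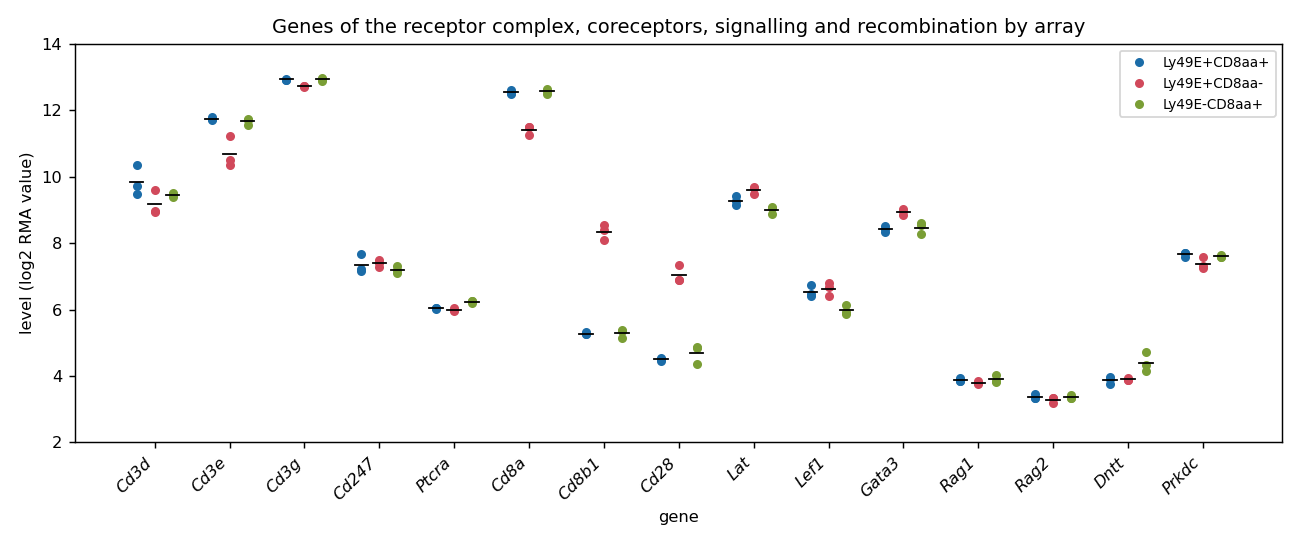
Log2 expression level (vertical axis) on each of the 9 arrays for 15 genes of the receptor complex, coreceptors, signalling, locus factors and recombination; points are arrays coloured by population and short lines are means. Rag1 and Rag2 stay between 3.19 and 4.02 on all arrays, whereas Cd3e and Cd8a are lower and Cd8b1 is higher on the Ly49E-only arrays.

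Markers of other cell types differed between the same populations. Of 9 T cell markers, 1 was higher (Cd3e) and 2 were lower (Cd8b1 and Cd28) in double-positive than in Ly49E-only cells. The log2 of their summed level was 13.59 to 13.64 in double-positive, 13.19 to 13.40 in Ly49E-only and 13.55 to 13.60 in CD8aa-only cells. Cd3g and Cd3e, with means of 12.93 and 11.75 in double-positive cells, make up much of this sum. It therefore shows little of the differences of Cd8b1 and Cd28. Of 8 NK cell markers, 4 were lower and 1 was higher in double-positive than in Ly49E-only cells. The differences were -5.46 for Klrk1, -5.44 for Ncr1, -2.83 for Eomes and -2.27 for Klrd1, and 0.58 for Prf1. Their sums were 13.10 to 13.21, 13.54 to 13.61 and 13.04 to 13.19. Gzma, with means of 12.85, 12.77 and 12.84, makes up much of these sums, so they show little of those differences. Of 8 dendritic cell or phagocyte markers, 4 were lower in each Ly49E+ population than in CD8aa-only cells, with sums of 10.21 to 10.46, 10.44 to 10.70 and 10.69 to 11.14. Of 6 measured B cell markers only Blnk was called, lower in both Ly49E+ populations than in CD8aa-only cells, with sums of 9.79 to 10.03, 9.68 to 10.10 and 9.82 to 10.18. Cd79b, with means of 9.71, 9.62 and 9.82, makes up much of the B cell sums. None of 7 enterocyte or 5 mast cell markers was called in any comparison. The enterocyte sums were not low, at 12.16 to 12.66 in double-positive, 11.93 to 12.73 in Ly49E-only and 11.78 to 12.76 in CD8aa-only cells. The mast cell sums were 6.55 to 6.93, 6.51 to 7.16 and 6.35 to 6.70. No marker can read 0 on this log2 scale. The part of these other cells, or of differing cell makeup within a gate, in the segment differences was not tested.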

How the data were processed

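Total RNA of 9 sorted samples (3 populations, 3 arrays each) was hybridised to Affymetrix Mouse Gene 1.0 ST arrays after isolation with the RNeasy Plus Micro kit and Ovation Pico WTA V2 amplification, per the series' design text. The values deposited by the authors are log2 expression levels from RMA, per the submitters' processing notes. RMA's version and annotation are not given in the sources read here. RMA quantile normalisation compresses global shifts, and arrays lack counting depth, so their number limits precision.

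Rows were named through the platform annotation: 23410 of 35556 were listed (21789 with 1 symbol), and 12146 were not. Current names came from the RefSeq gene table, whose assembly could not be matched to the array's, so no coordinates are given. No segment sequence was found in the tables used. One model with 3 population means, without block or filter, was fitted to all listed rows with limma 3.58.1 in R 4.3.3, and p-values were adjusted by Benjamini-Hochberg over all rows (threshold 0.05). Intervals are 95% intervals from the moderated fit with 2.75 prior and 6 residual degrees of freedom.

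Named rows were those called in any comparison, the 3 highest and 2 lowest of each locus, and listed pathway genes (the brightest single-symbol row of each). Members and lists were chosen with earlier results of these data known. Rows 10414929, 10414754, 10414860, 10414950 and 10414953, Prkdc, the direction of the alpha rows as a group and the family summaries were added after their values were seen. On simulated data for double-positive minus Ly49E-only over 23410 rows, the fit recovered 48% of rows changed by 0.5, 84% at 1, 94% at 2 and 100% at 4 log2 units. The changed rows were picked at random from all rows, and values were drawn independently. Segment rows had a median SE of 0.124 against 0.096 over all rows, so these rates need not hold for them. Alternatives changed the rows fitted, the filter, the normalisation, the variance model, the block and the arrays. No batch is named in the labels.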

Additional observations from a re-analysis of the deposited data

How the results depend on the processing

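The call of row 10415015 held in every alternative that kept it, and 0 segment rows were called between double-positive and CD8aa-only cells in all of them. The other calls did not hold throughout. For double-positive minus Ly49E-only the 2 called segment rows became 1 with every row of the table fitted, 1 above the 25th percentile of row means, 1 with the replicate block, 4 with repeated quantile normalisation and 0 among single-symbol rows, and 1 to 3 on leaving out an array. For Ly49E-only minus CD8aa-only the 4 became 1 with every row, 0 among single-symbol rows, 2 with repeated quantile normalisation, 2 with median centring, 2 with an intensity trend, 2 with the replicate block and 1 with the 6 arrays alone, and 1 to 5 on leaving out an array. The F test's 2 became 1 with every row, with the 25th percentile or median filter and with the block, 0 among single-symbol rows, and 1 to 2 on leaving out an array. The 6 called differences of named rows became 2 with every row, 0 among single-symbol rows, 3 with the block and 2 to 7 on leaving out an array. The single-symbol fit drops every row called in the main result, since all of them carry several symbols; other causes were not tested. No difference reversed while called.

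Same-numbered arrays deviated together with correlations of -0.060 to 0.25, over 0.1 in 4 of 9 pairs. For number 1 they were 0.25, 0.17 and 0.13, and the first-named population's number 1 gave -0.15 to -0.040 with other numbers. For numbers 2 and 3 the same-numbered range of -0.060 to 0.13 overlapped that of the remaining pairs, -0.19 to 0.11. In every population replicate 1 had the highest level of each of the 7 enterocyte markers, except Epcam in double-positive cells. The labels do not say what same-numbered arrays share, so the main fit took no pairing. Whether they share a preparation was not tested. With the replicate block the adjusted p of row 10407940 was 0.0567 for double-positive minus Ly49E-only and 0.0405 for Ly49E-only minus CD8aa-only, and that of rows 10414778 and 10414885 was 0.110 for the latter. Over all 23410 rows the calls were 25, 339 and 433 in the order double-positive minus CD8aa-only, double-positive minus Ly49E-only, and Ly49E-only minus CD8aa-only. The 6 arrays alone gave 4, 223 and 255, and leaving out an array gave 5 to 18, 232 to 308 and 285 to 370. Signal over background was not given, so dim rows may hold background.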
